A study of Mus musculus with 144 samples.

Results

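Endothelial cells isolated from mouse liver at zeitgeber time (ZT, hours after lights on) 22 were compared between mice lacking both REV-ERB receptors in hepatocytes and control mice. The 6 libraries are the 3 endothelial KO libraries and the 3 endothelial WT libraries at this time, taken by genotype and time from the labels, out of 24 endothelial libraries and 144 libraries in the series. The series title asks how the hepatocyte clock and feeding control daily gene expression in several liver cell types. The other endothelial libraries, from both genotypes at ZT4, ZT10 and ZT16, entered the same fit. KO and WT Kupffer cells, the resident macrophages of the liver, and KO and WT whole liver under ad libitum feeding, all at ZT22 with 3 libraries a group, were used as 2 further comparisons.

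All mice were male C57BL/6J on normal chow. KO mice are described as REV-ERB a/b double knockout in adult hepatocytes, and WT mice as controls. The deposited columns name the KO libraries CRE and the WT libraries GFP, read here as a recombinase and a control vector, so delivery and genotype differ together between the groups and cannot be told apart. The sources used here do not give the promoter driving the recombinase, the way the endothelial cells were isolated, any pooling of animals or the feeding schedule of the endothelial mice. Nothing in the labels ties a library to a single animal, so every p-value measures a spread between libraries, which may be technical. In the endothelial fit this spread is estimated over all 24 libraries, not over the 6 alone. Total RNA was sequenced after Trizol and column extraction and TruSeq library preparation.

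Nr1d1 and Nr1d2 encode REV-ERBα and REV-ERBβ, nuclear receptors that repress transcription. They bind DNA elements shared with the ROR activators, and through them repress the clock activator gene Arntl (BMAL1) and clock output genes such as Nfil3. BMAL1 and CLOCK in turn drive the REV-ERB genes, the Per and Cry repressors and Ciart from E-box elements, which closes a daily loop in most cells. Liver sinusoidal endothelial cells line the liver capillaries in direct contact with hepatocytes, clear circulating molecules with scavenger receptors and carry this clock themselves.

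Promoter windows of 3 clock genes are shown because elements of the REV-ERB loop stand in them, and the values of these genes are given below. Each runs 5′ to 3′ along the gene from 250 bases before to 50 bases after the start in the RefSeq table on GRCm38.p6, with matches in capitals. The capitals mark the REV-ERB/ROR core (TAGGTCA or TGGGTCA, on either strand) in Arntl at chr7:113207261-113207560 on the plus strand and, read on the opposite strand, in Nfil3 at chr13:52980990-52981289 on the minus strand. In Ciart, at chr3:95882179-95882478 on the minus strand, they mark 3 matches to the E-box CACGTG.
Arntl: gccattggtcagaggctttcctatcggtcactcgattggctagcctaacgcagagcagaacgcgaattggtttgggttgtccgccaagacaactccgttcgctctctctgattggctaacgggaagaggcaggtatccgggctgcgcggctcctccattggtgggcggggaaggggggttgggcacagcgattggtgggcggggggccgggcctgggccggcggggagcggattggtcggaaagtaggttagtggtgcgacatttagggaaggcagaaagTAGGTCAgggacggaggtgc
Nfil3: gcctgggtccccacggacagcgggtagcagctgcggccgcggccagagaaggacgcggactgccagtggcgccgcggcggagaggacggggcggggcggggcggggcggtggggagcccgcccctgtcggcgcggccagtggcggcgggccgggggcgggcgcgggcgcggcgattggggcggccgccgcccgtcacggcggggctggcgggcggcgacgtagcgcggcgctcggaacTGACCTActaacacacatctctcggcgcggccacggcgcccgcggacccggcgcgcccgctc
Ciart: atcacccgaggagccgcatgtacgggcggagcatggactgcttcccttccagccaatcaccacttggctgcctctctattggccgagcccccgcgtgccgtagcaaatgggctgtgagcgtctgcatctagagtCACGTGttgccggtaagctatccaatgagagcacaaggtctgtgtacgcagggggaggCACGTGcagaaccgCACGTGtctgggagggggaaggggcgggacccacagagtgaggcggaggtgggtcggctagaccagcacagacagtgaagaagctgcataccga
The core stands in 6.453% of all 32851 promoter windows of this length and the E-box in 7.15%. Of the 19 clock genes 16 matched a window, of which 2 (Arntl and Nfil3) hold the core and 5 (Bhlhe41, Ciart, Cry1, Per1 and Tef) hold the E-box. A match is a description of these letters and does not show binding.

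The endothelial values are the authors' signal per transcript after quantile normalisation, which gives each of the 24 libraries the same set of sorted values. Their sequencing depth is therefore unknown, a shift shared by most genes cannot be seen, and the values of the most abundant genes record little more than their rank. All 25 endothelial markers were above 0 in all 6 libraries, which alone does not set a cell type apart. Pecam1, an endothelial adhesion molecule, had 3730.1, 3115 and 3919 signal units in the KO libraries and 3592, 3652 and 3568 in the WT libraries. The summed endothelial markers ranged from 124064 to 164942 in the KO and from 156472 to 159401 in the WT libraries. The 21 hepatocyte markers described below summed to 12158 to 154064 in the KO and 16145 to 25308 in the WT libraries. Their highest sum, in KO 2, thus lay within the range of the endothelial sums of the KO libraries. Kupffer cell markers were present as well, summing to 8401 to 13866 in the KO and 6829 to 13694 in the WT libraries, ranges that overlapped. In such bulk samples fewer cells of a type and less RNA per cell cannot be told apart.

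The KO libraries at ZT22 stood apart from the other 21 endothelial libraries in their spread. The median SD of a gene's log2 value among the 3 KO libraries was 0.300, against 0.149 among the 3 WT libraries, and it lay between 0.149 and 0.196 in the other 7 groups. Spearman correlations across genes were 0.916 to 0.954 between KO libraries and 0.984 to 0.989 between WT libraries, with 0.978 to 0.980 between KO 1 and the WT libraries, 0.933 to 0.940 for KO 2 and 0.960 to 0.964 for KO 3. KO 1 was thus the library closest to WT, and KO 2 and KO 3 each departed in a direction of its own: KO 2 in hepatocyte transcripts and KO 3 in transcripts rich in G and C, as described below. The 45S ribosomal transcript Rn45s took 5.01%, 5.01% and 8.63% of the signal in the KO libraries and 5.04%, 1.71% and 5.02% in the WT libraries.

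The targeted genes were examined first. Their values cover the whole transcript and the sources used here do not give which exons were deleted, so the deletion itself is not checked by them. In ad libitum liver at ZT22, Nr1d1 (NM_145434, mm9 chromosome 11, 98629246 to 98636691) had 36.5, 35.5 and 40.7 CPM (counts scaled to a fixed library total) in KO and 3.35, 3.23 and 2.42 CPM in WT libraries, and rose by 3.67 on the log2 scale (edgeR adjusted p = 5.21e-08). In endothelial cells the same transcript had 11.9, 19.9 and 27.8 signal units in KO and 20.9, 9.99 and 18.1 in WT libraries, a difference of 0.25 ± 0.40 (log2 ± SE, limma adjusted p = 0.802). The endothelial groups overlapped, while the liver groups did not. Nr1d2 (NM_011584, mm9 chromosome 14, 19036570 to 19071620) rose in KO liver by 2.27 (edgeR adjusted p = 4.25e-08) and had 52.2, 53.6 and 36.9 in KO against 69.1, 94.8 and 43.5 signal units in WT endothelial cells, a difference of -0.48 ± 0.25. The difference between liver and endothelial effects was not tested, since the tables were normalised separately.

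No gene passed the threshold in endothelial cells at ZT22. Of 12525 genes tested with limma over all 24 endothelial libraries, 0 (0%) had an adjusted p under 0.05 and the smallest adjusted p was 0.187. At an unadjusted p under 0.05 there were 1708 genes (13.6%), 555 higher (4.43%) and 1153 lower (9.21%) in KO. The 3 KO values lay wholly above the 3 WT values for 554 genes (4.42%) and wholly below for 1318 (10.5%). The median difference over all genes was -0.059 on the log2 scale, and the 95% interval lay within a 2-fold change for 9683 genes (77.3%), with a median SE of 0.196. These intervals rest on a spread shared by 8 groups, of which KO at ZT22 had the largest median SD (0.300). In a fit of the 6 libraries alone 787 genes had an unadjusted p under 0.05, and the smallest limma adjusted p was 0.713. The count of genes passing depended on the KO libraries. It was 242 (78 higher, 164 lower) without KO 1, 1 without KO 2 and 12 (10 higher, 2 lower) without KO 3. It was 0 without each WT library in turn. Of the 242, 61 higher and 108 lower had the same sign in KO 1. The 242 also differed by direction in the G and C content of their transcripts, given below.

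The effect at ZT22 was also set against the mean effect at ZT4, ZT10 and ZT16. That difference passed for 0 genes (0%), with 1889 (15.1%) at an unadjusted p under 0.05, and for 399 genes without KO 1. At the other times the genotype effect passed for 0 genes at ZT4 (0%), for 1 gene at ZT10 (0.00798%), the urinary protein gene Mup17, and for 0 genes at ZT16 (0%). Unadjusted p under 0.05 was reached by 574 (4.58%), 2254 (18%) and 1615 (12.9%) genes at ZT4, ZT10 and ZT16. In Kupffer cells at ZT22, 0 of 12271 genes (0%) passed, with 541 (4.41%) at an unadjusted p under 0.05. In whole liver at ZT22 251 of 12536 genes (2%) passed with edgeR, 144 higher (1.15%) and 107 lower (0.854%).

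Hepatocyte RNA was measured in each library from 21 hepatocyte markers. Alb, the albumin gene, had 16012, 90905 and 5225 signal units in the KO and 9438, 14223 and 9809 in the WT libraries. KO 1 and KO 2 were above all WT libraries and KO 3 below all of them. The 21 markers summed to 0.902%, 4.07% and 0.322% of the signal in KO 1, 2 and 3, and to 0.430%, 0.676% and 0.495% in the WT libraries. The means were 1.77 ± 2.02% in KO and 0.533 ± 0.128% in WT (SD, n = 3 each), a ratio of 3.31 that did not pass an exact permutation test (two-sided p = 0.4, where the smallest possible with 3 against 3 is 0.1). Without KO 2 the ratio was 1.15. Whole liver libraries at ZT22 held 17.5 to 18.7% in KO and 15.4 to 19.7% in WT, and the 18 endothelial libraries of other times held 0.316 to 2.18%.

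The markers stood higher than in WT libraries in KO 1 and KO 2 and were divided in KO 3. In KO 2 all 21 were above the highest WT library, with a median of 7.46 times the WT mean, and in KO 1 19 were, with a median of 1.96 times. In KO 3 4 were above the highest and 13 below the lowest WT library, with a median of 0.716 times the WT mean. All 21 had positive differences (median 1.20 on the log2 scale, range 0.44 to 1.67), 0 passed the threshold, and 1 had an unadjusted p under 0.05. Without KO 2 18 were positive, with a median of 0.33, and without KO 3 all 21 were, with a median of 1.97 and 16 at an unadjusted p under 0.05. The 1 gene was Hnf4a, a transcription factor of hepatocyte identity, with 68.5, 205 and 47.9 signal units in KO and 36.8, 26.4 and 35.6 in WT libraries (1.40 ± 0.47, log2 ± SE). In Kupffer cells at ZT22 all 21 were likewise positive (median 1.28), and in whole liver their median was 0.026.

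**Figure D1:**
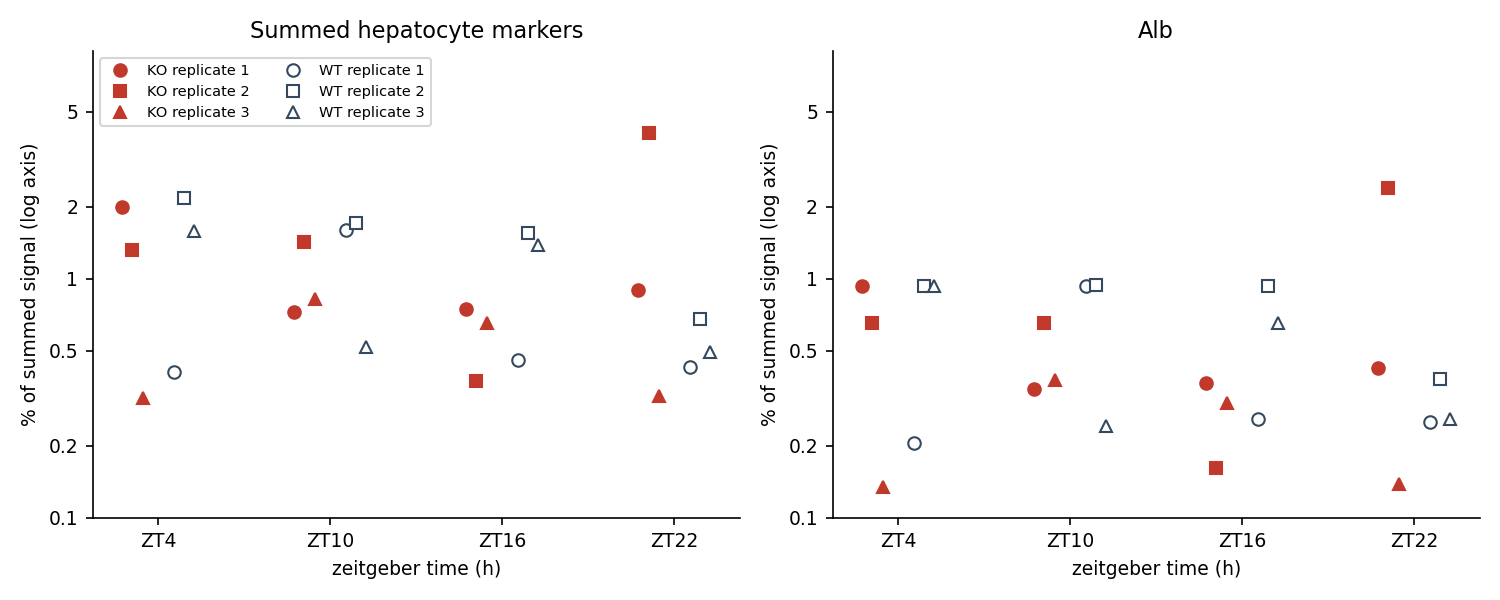
Share of the summed signal taken by 21 hepatocyte markers (left) and by Alb alone (right) in each endothelial library, on a log axis, at 4 zeitgeber times; filled symbols are KO and open symbols WT libraries. At ZT22 KO replicate 2 lies highest at 4.07% and KO replicate 3 lowest at 0.322%, on either side of the WT libraries at 0.430 to 0.676%.

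Transcript length had little relation to the median genotype effect over the 3 KO libraries together, with a positive one in KO 2 and a negative one in KO 3. In 5 equal bins of genes from the shortest to the longest transcripts the median KO minus WT difference was -0.071, -0.051, -0.056, -0.065 and -0.052 on the log2 scale, and Spearman's rho across genes was 0.0212. Genes are not independent replicates, so no p is given. The bin of the longest minus that of the shortest was 0.02 over all libraries, and -0.018, 0.16 and -0.087 in KO 1, 2 and 3. In WT 1, 2 and 3 it was 0.040, -0.045 and -0.0070. Genes higher at an unadjusted p under 0.05 made up 3.27% of the shortest and 6.15% of the longest bin, and genes lower 8.22% and 9.30%.

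The G and C content (GC) of the transcript had a clear relation to the effect. It was examined after the first results were seen, with GC known for 12448 genes (99.4%). In 5 equal bins from the GC-poorest to the GC-richest genes the median KO minus WT difference was -0.18, -0.12, -0.079, 0.022 and 0.18. The gradient was steepest in KO 3, from -0.31 in the poorest to 0.49 in the richest bin, with -0.22 to -0.022 in KO 2 and -0.015 to 0.034 in KO 1. Of the genes higher at an unadjusted p under 0.05, 313 lay in the richest bin and 24 in the poorest, and of the genes lower, 38 lay in the richest and 442 in the poorest. The 78 genes that passed as higher without KO 1 had a median GC of 57.4%. For the 164 that passed as lower it was 44.4%, against 50% over all genes. Genes named below as passing without KO 1 belong to these sets. Each library's slope of log2 signal on GC, per 10 percentage points, was -0.076, -0.0067 and 0.38 in the KO libraries, against -0.11, -0.13 and -0.091 in the WT libraries and -0.24 to 0.33 in the 18 libraries of other times. With that slope as a covariate 345 genes were higher and 707 lower at an unadjusted p under 0.05 and 0 passed the adjusted threshold, with a smallest adjusted p of 0.0687, for Cyp17a1. A second fit first removed each library's linear trend on GC. There 431 genes were higher and 896 lower at that p, and the smallest limma adjusted p was 0.247. The 2 fits moved several of the gene lists below by different amounts.

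**Figure D2:**
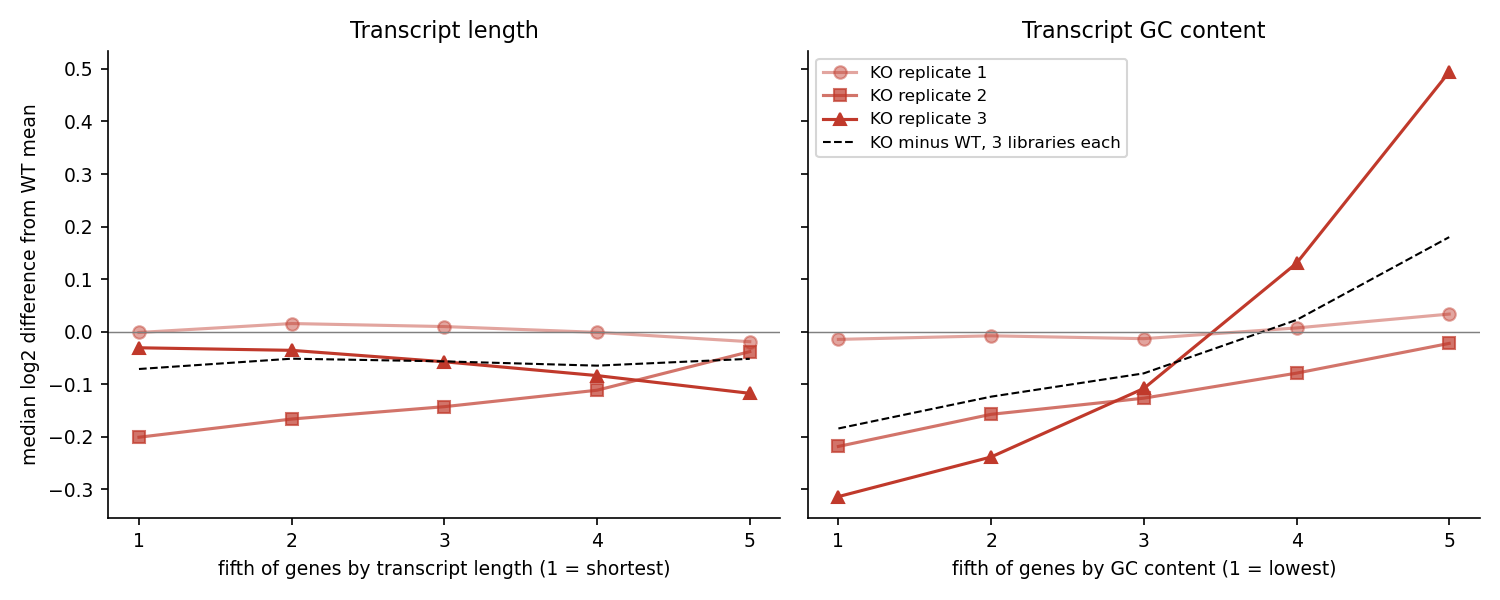
Median log2 difference of each KO library from the mean of the 3 WT libraries at ZT22 in 5 equal bins of genes by transcript length (left) and by transcript GC content (right); the dashed line is the KO minus WT difference over 3 libraries each. Over length the line of KO replicate 2 climbs from -0.20 to -0.038, and over GC the line of KO replicate 3 climbs from -0.31 to 0.49.

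Among the 10 genes of smallest p with higher values in KO, metabolic genes that liver expresses more strongly than these cells stood first. As no gene passed, the 10 of smallest p in each direction are named, none of them called, and the counts below describe genes that were chosen by this same contrast. Thrsp (Spot 14, a regulator of fatty acid synthesis; NM_009381, mm9 chromosome 7, 104561467 to 104566020) had 89.8, 129.7 and 77.8 signal units in KO and 44.6, 32.98 and 32.96 in WT libraries. The lowest KO library was above the highest WT library, and the difference was 1.38 ± 0.26 (log2 ± SE, limma adjusted p = 0.187). Cyp17a1, a steroid hydroxylase (NM_007809, mm9 chromosome 19, 46741655 to 46747490), had 61.1, 55.1 and 10.6 in KO and 1.52, 2.26 and 1.47 in WT libraries (3.65 ± 0.70, limma adjusted p = 0.187). The WT libraries were near the lower end of the scale, while KO 1 and KO 2 were far above them and KO 3 between. Without KO 3 both genes passed, with differences of 1.54 for Thrsp and 4.44 for Cyp17a1. Both also passed without KO 1, with differences of 1.44 and 3.23, and neither passed without KO 2.

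Cyp17a1 was also higher in KO in liver and Kupffer cells at ZT22 and in endothelial cells at the other 3 times. In whole liver at ZT22 it had 48.6, 142 and 59.1 CPM in KO and 2.09, 11.1 and 6.19 CPM in WT libraries, a rise of 3.66 on the log2 scale (edgeR adjusted p = 3.18e-05), and in Kupffer cells it had 26.04, 31.9 and 11.9 signal units in KO and 1.73, 0 and 1.08 in WT libraries. In endothelial cells at ZT4, ZT10 and ZT16 the differences were 3.78, 2.83 and 2.02, none past the threshold. With the mean log2 value of the hepatocyte markers as a covariate the ZT22 difference was 2.85 ± 0.57 (limma adjusted p = 0.0872). WT liver held Cyp17a1 at 4.57 times the scaled level of WT endothelial cells of the other times. The 2 levels come from tables normalised separately.

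Further genes of sugar, drug and steroid metabolism followed. Khk (ketohexokinase, the first enzyme of fructose use) had 90.9, 118 and 123 in KO and 72.2, 34.9 and 53.9 signal units in WT libraries (1.08 ± 0.23). Por, the reductase that feeds electrons to cytochromes P450, had 131, 157 and 144 in KO and 79.6, 82.7 and 73.4 in WT libraries (0.86 ± 0.19). Cyp3a59, a cytochrome P450, had 18.6, 115 and 12.7 in KO and 2.10, 3.24 and 5.06 in WT libraries (2.87 ± 0.64) and rose in KO liver by 1.68 (edgeR adjusted p = 0.000112). In each of the 3 the lowest KO library was above the highest WT library, and for Cyp3a59 KO 2, the library with most hepatocyte RNA, was far above the other two. WT liver held Thrsp, Khk and Cyp3a59 at 30.1, 17.3 and 16.6 times and Por at 6.02 times the level of WT endothelial cells. With the hepatocyte markers as a covariate the differences were 1.12 ± 0.24 for Thrsp, 0.96 ± 0.23 for Khk, 0.70 ± 0.18 for Por and 1.96 ± 0.39 for Cyp3a59 (log2 ± SE, none past the threshold in limma).

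The other 5 genes higher in KO were not all liver genes. Rbm47, an RNA-binding protein, had 20.8, 65.7 and 43.6 in KO and 9.92, 16.4 and 11.9 in WT libraries (1.58 ± 0.34, log2 ± SE), and its liver level was 6.70 times the endothelial one. Plekhg2 had 142, 162 and 198 in KO and 97.3, 76.5 and 96.8 in WT libraries (0.88 ± 0.20). Inf2, an actin-regulating formin, had 89.2, 126 and 160.1 in KO and 60.8, 61.7 and 60.98 in WT libraries (0.98 ± 0.23). Spen, a transcriptional repressor that also acts in X inactivation, had 199, 291 and 328 in KO and 179, 161 and 185 in WT libraries (0.61 ± 0.15), and the small nucleolar RNA Snord15b had 317, 589 and 473 in KO and 203, 204 and 264 in WT libraries. Plekhg2 and Snord15b were lower in liver than in endothelial cells, at 0.179 and 0.00958 times the endothelial level. In Plekhg2, Inf2 and Spen KO 3 was the highest library, and the median GC of the 10 genes was 55.8%, against 50% over all genes. With the GC slope as a covariate the differences of these 3 genes were 0.59 ± 0.17, 0.75 ± 0.23 and 0.38 ± 0.13. With the trend on GC removed they were 0.70 ± 0.16, 0.76 ± 0.20 and 0.45 ± 0.12.

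Genes lower in KO included regulators of transcription and of cell division. Etv1, an ETS transcription factor, had 37.4, 29.5 and 31.1 signal units in KO and 64.5, 54.7 and 47.04 in WT libraries (-0.74 ± 0.17, log2 ± SE). Plk2, a stress-responsive polo-like kinase, had 664, 811 and 1004 in KO and 1396, 1251 and 1327 in WT libraries (-0.70 ± 0.16). Pbk, a kinase of mitotic cells, had 1.04, 5.995 and 3.17 in KO and 10.4, 18.9 and 11.1 in WT libraries (-1.84 ± 0.45), and Nsl1, a kinetochore protein, had 10.7, 16.2 and 10.01 in KO and 23.9, 28.8 and 25.2 in WT libraries (-1.05 ± 0.25). All of these had every KO library below every WT library. Otud1, a deubiquitinase, had 41.6, 30.6 and 29.8 in KO and 49.99, 58.6 and 63.1 in WT libraries (-0.74 ± 0.18), and Gabra3, a GABA receptor subunit, had 22.9, 25.1 and 23.9 in KO and 41.2, 52.2 and 42.3 in WT libraries (-0.88 ± 0.21). For the other 4, Vstm4, Kdelc2, Ttc33 and Ahcyl2, the differences were -0.65, -0.49, -0.63 and -0.52.

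These 10 lower genes lay between 0.0367 times (Plk2) and 0.721 times (Ahcyl2) the endothelial level in liver, and their median GC was 46.5%. Their limma adjusted p was 0.205 or less. As the KO and WT libraries of the 20 named genes do not overlap, leaving out a library could not turn their direction. All 20 kept it in all 22 fits that were run, which their choice by smallest p favours. The adjusted p of Thrsp ranged from 0.0249 to 0.713 over those fits and that of Plk2 from 0.0333 to 0.713.

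**Figure D3:**
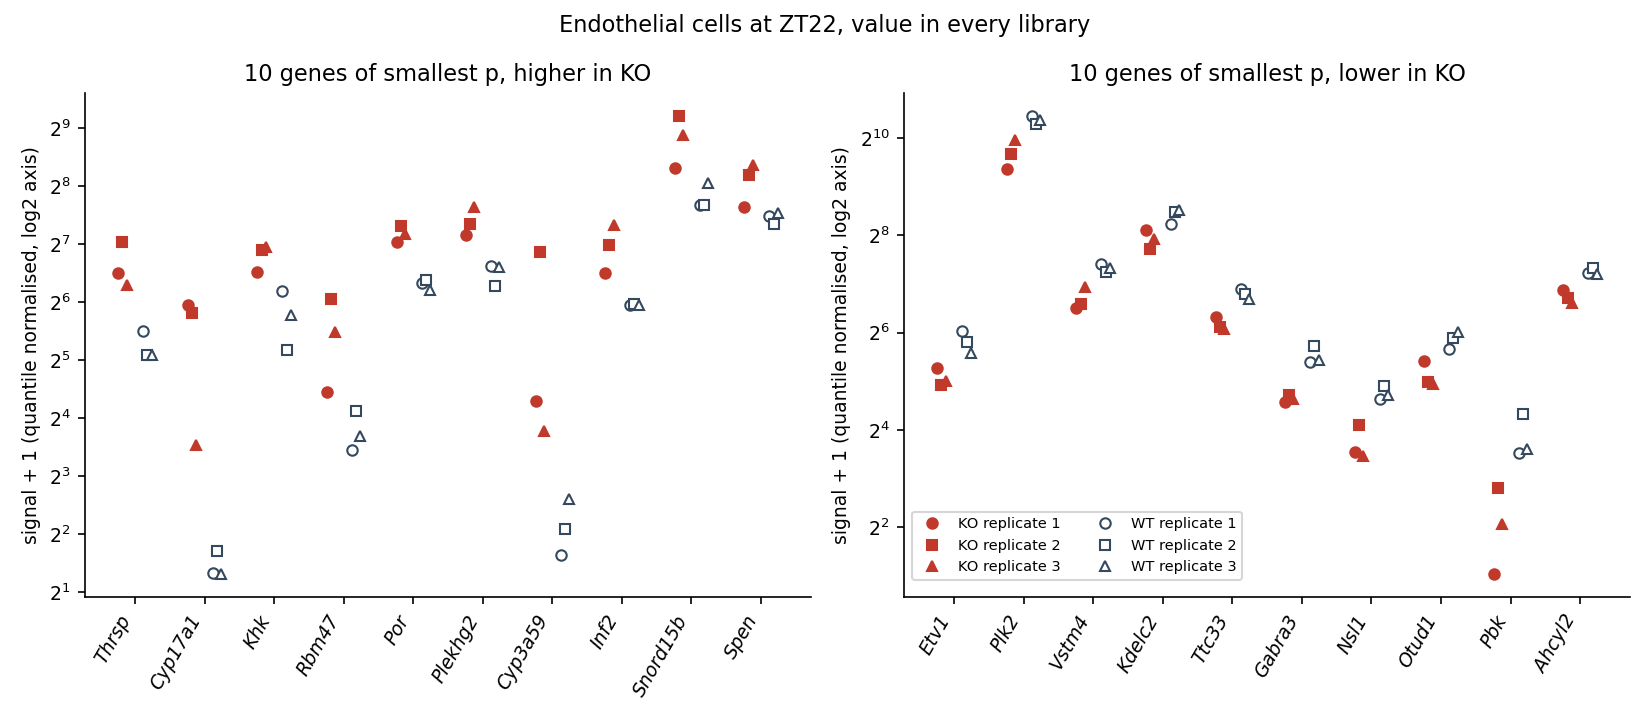
Signal + 1 on a log2 axis in the 3 KO libraries (filled) and the 3 WT libraries (open) at ZT22 for the 10 genes of smallest p with higher (left) and with lower (right) values in KO; symbols give the replicate number. The KO and WT libraries of each gene do not overlap, which the choice by smallest p favours, and KO replicate 2 stands far above the others for Cyp3a59.

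No clock gene passed the threshold between the genotypes at ZT22. Of the 19 clock genes 7 were higher and 12 lower in KO, with a median of -0.074, against a median of -0.059 over all genes. Among the activators Arntl had 228, 195 and 257 signal units in KO and 199, 148 and 222 in WT libraries (0.27 ± 0.51, log2 ± SE), and Clock had 1124, 943 and 888 in KO and 1129.6, 1109 and 982 in WT libraries (-0.13 ± 0.11). Both overlapped between genotypes, and the 95% interval ran from -0.80 to 1.34 for Arntl and from -0.35 to 0.097 for Clock. Npas2, a CLOCK paralog repressed by REV-ERB, had 20.6, 38.6 and 15.3 in KO and 11.6, 6.31 and 14.9 in WT libraries, with every KO library above every WT library. Its difference was 1.08 ± 0.61 (limma adjusted p = 0.436), 0.72 ± 0.68 without KO 2, and it rose in KO liver by 1.16 (edgeR adjusted p = 0.00341).

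Outputs and repressors of the loop were mixed. Nfil3, an output repressor whose promoter window holds the core shown above, had 16.5, 48.3 and 3.06 in KO and 4.77, 1.45 and 10.3 in WT libraries (1.48 ± 0.63, limma adjusted p = 0.318). KO 3 was within the WT range, and without KO 2 the difference was 0.63 ± 0.60. In KO liver Nfil3 rose by 0.61 (edgeR adjusted p = 0.0319). Bhlhe40 (DEC1, a repressor of the E-box loop) had 126, 154 and 107 in KO and 204, 171 and 192 in WT libraries, all KO below all WT (-0.55 ± 0.20, limma adjusted p = 0.285). These 2 were the clock genes with an unadjusted p under 0.05.

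Per1, a light- and stress-responsive clock repressor, had 145, 24.4 and 101 in KO and 28.3, 35.7 and 64.4 in WT libraries (0.81 ± 0.61), so KO 2 was below all WT libraries and the others above them. Ciart, whose window holds 3 E-boxes, had 4.84, 3.45 and 4.83 in KO and 1.52, 1.27 and 3.79 in WT libraries (0.82 ± 0.49), values near the bottom of the scale. Per2, Per3 and Cry1 differed by 0.28, -0.28 and -0.19, and Cry2, a second cryptochrome, by -0.31 with all KO libraries below all WT libraries. The output activators Dbp, Tef and Hlf differed by -0.065, -0.35 and -0.68, and the activator Rora by -0.074. Bhlhe41 differed by -0.017.

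All clock genes but Per2 had a ZT22 minus ZT10 difference of the same sign in both genotypes. From ZT10 to ZT22 Arntl was higher by 3.66 in KO and 4.24 in WT endothelial cells on the log2 scale, and Npas2 by 3.74 in KO and 2.94 in WT. The ZT22 minus ZT10 difference was -3.74 in KO and -4.62 in WT for Nr1d1, -4.85 in KO and -4.19 in WT for Nr1d2, and -4.17 in KO and -4.76 in WT for Dbp. For Per1 it was -0.31 in KO and -2.12 in WT, and for Per2 0.048 in KO and -0.77 in WT, of opposite sign. These swings are descriptions of group means, and their differences were not tested.

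**Figure D4:**
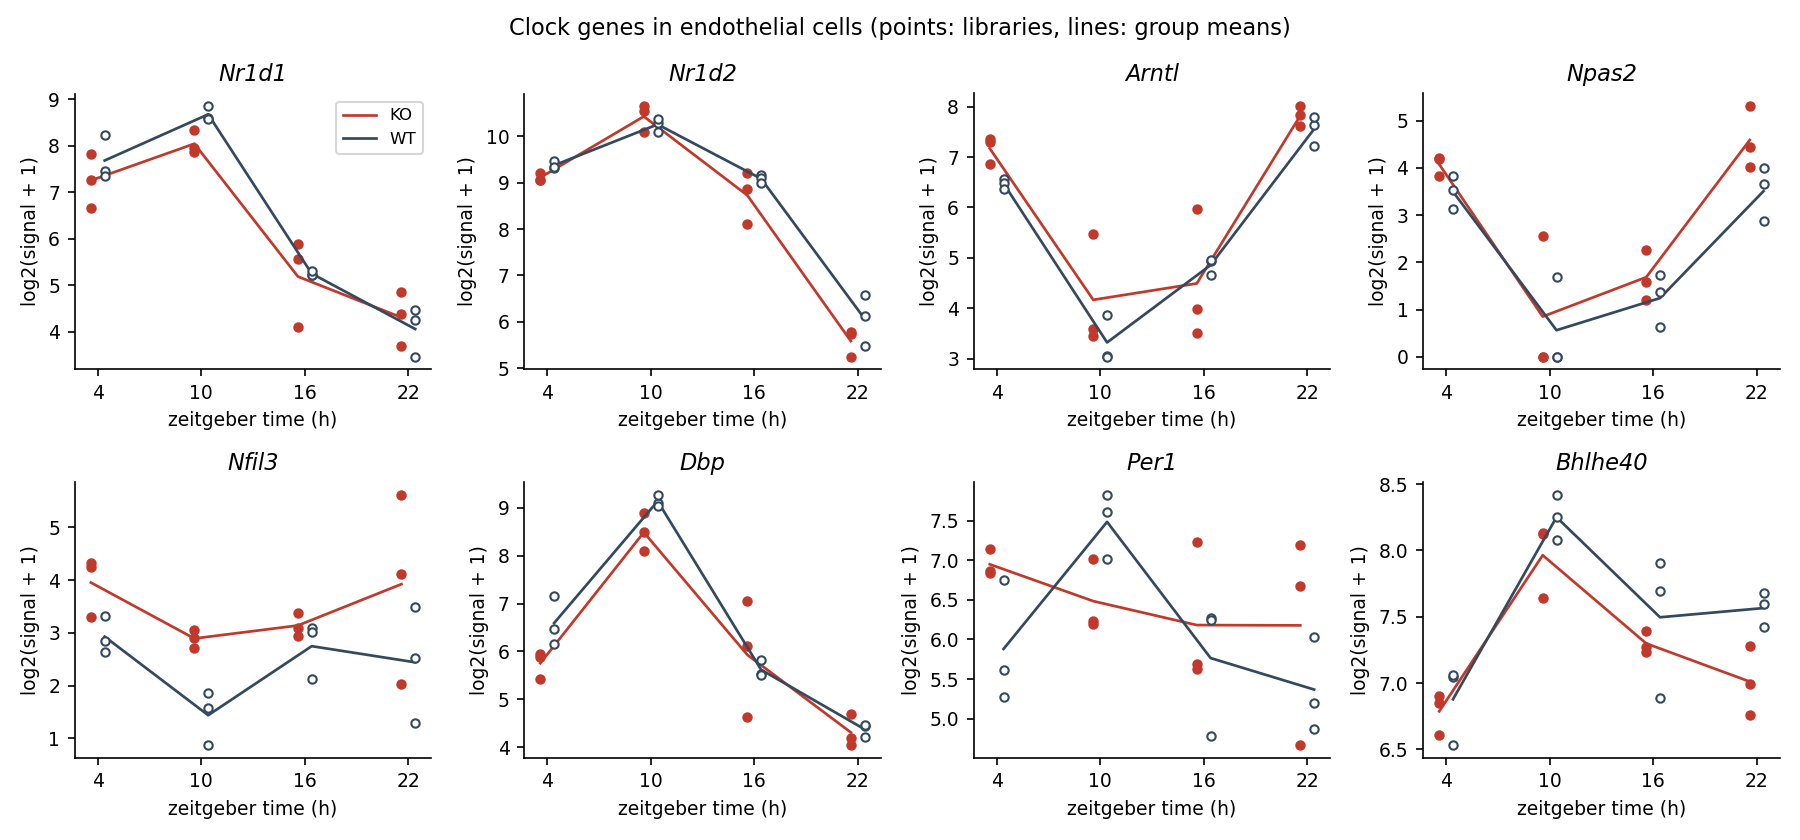
log2(signal + 1) of 8 clock genes in KO (filled) and WT (open) endothelial libraries at 4 zeitgeber times, with lines through the group means. The lines run close together for Arntl, Nr1d1, Nr1d2 and Dbp, and the KO libraries of Nfil3 and Per1 at ZT22 are spread over most of the panel.

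Genes that changed in KO liver were followed into the endothelial libraries. In liver 85 genes (0.678%) rose and 77 (0.614%) fell by at least 1.5-fold at ZT22 in edgeR. Of the 85, 67 were tested in endothelial cells and 56 of them (83.6%) had positive differences, with a median of 1.07, against 41.2% and -0.059 over all genes. By library the median difference from the WT mean was 0.54, 1.88 and 0.20 in KO 1, 2 and 3. Of the 77 that fell, 53 were tested, 20 (37.7%) were positive and the median was -0.067. The liver and endothelial comparisons share no library.

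Of the 67 risen genes, 34 were at more than 8 times their endothelial level in liver, 13 were higher in liver by less, and 14 and 6 were lower in liver, by less than 8-fold and by at least 8-fold. Over all genes, 767 had a WT liver level more than 8 times that of WT endothelial cells of the other times, and 686 of these (89.4%) had positive differences, with a median of 0.70 and library medians of 0.43, 2.14 and -0.17 in KO 1, 2 and 3. The 34 genes that were both liver-rich and risen in KO liver all had positive differences, with a median of 1.44 and library medians of 1.16, 2.95 and 0.45. Of the 13 higher in liver by up to 8-fold 10 were positive (median 0.21), of the 14 lower in liver by less than 8-fold 10 (median 0.12), and of the 6 at least 8-fold lower 2 (median -0.064). The 15 that were liver-rich and fell in KO liver had a median of -0.38, with library medians of -0.55, 1.18 and -1.05. In each KO library the liver-rich genes therefore lay higher where they rose in liver and lower where they fell there. The differences between these sets were not tested, and the filter on values favours this order. Among genes at least 8-fold lower in liver, 1421 in all, 35.0% were positive.

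**Figure D5:**
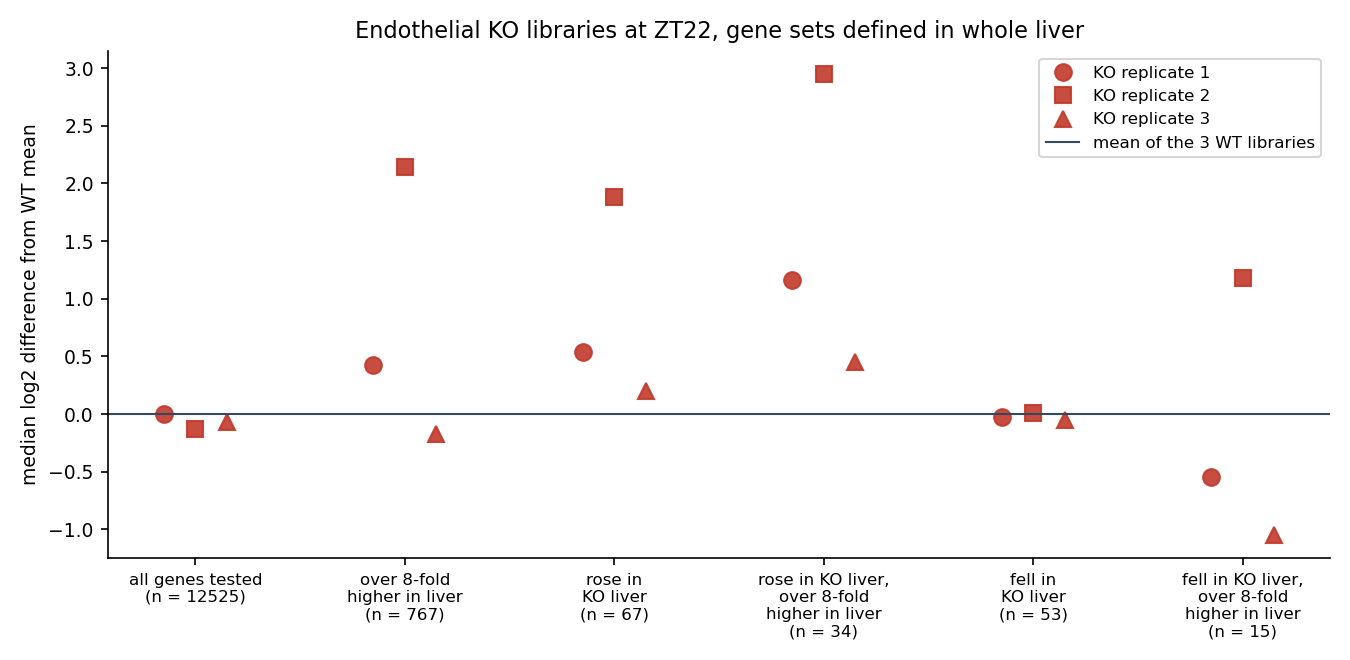
Median log2 difference of each endothelial KO library at ZT22 from the mean of the 3 WT libraries (line at 0), for all genes tested and for gene sets defined in whole liver; n is the number of genes. KO replicate 3 is at -0.17 for all liver-rich genes, at 0.45 for those that rose in KO liver and at -1.05 for those that fell.

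Single genes with a known response in KO liver showed both patterns. This list of 13 genes was drawn up with earlier liver results of this series known, so its direction is not independent evidence. Of them 10 were tested, 7 higher and 3 lower with a median of 0.51, and 3 were higher at an unadjusted p under 0.05: Cyp17a1, Loxl4 and Cyp2a5. Loxl4, a lysyl oxidase that cross-links matrix proteins, had 79.3, 178 and 112 in KO and 67.8, 66.5 and 60.8 in WT libraries (0.83 ± 0.21, limma adjusted p = 0.205), 0.53 ± 0.19 without KO 2. It rose in KO liver by 2.75 (edgeR adjusted p = 3.3e-09). Cyp2a5, a coumarin and steroid hydroxylase, had 155, 584 and 94.98 in KO and 33.4, 57.6 and 18.6 in WT libraries (2.60 ± 0.81) and rose in KO liver by 2.39 (edgeR adjusted p = 2.28e-05). In contrast Lpl, lipoprotein lipase, rose in KO liver by 2.88 and had 155, 151 and 243 in KO and 109, 202 and 177 in WT endothelial libraries (0.18 ± 0.30), groups that overlapped.

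Lipid synthesis genes had more higher than lower members in KO. Of 20 lipogenic genes 16 were higher and 4 lower, with a median of 0.29, 0 called, 5 higher and 1 lower at an unadjusted p under 0.05. The members of this and the following lists were chosen for naming after their values were seen, by that p. Over all genes 41.2% were higher, with 4.43% higher and 9.21% lower at that p. Srebf1, the transcription factor of lipogenesis, had 126, 227 and 256 in KO and 113, 96.5 and 112 in WT libraries (0.85 ± 0.24, log2 ± SE), and Fasn, fatty acid synthase, had 221, 651 and 208 in KO and 111, 98.8 and 113 in WT libraries (1.52 ± 0.54). Acacb and Acly differed by 0.64 and 0.26, and Pnpla3, a lipase, by -0.72. Without KO 1 Thrsp, Srebf1 and Acacb passed the threshold. Without KO 2 the list's median was 0.0054, and with the hepatocyte markers as a covariate it was 0.0045, with Srebf1 at 0.70 ± 0.24 and Fasn at 0.93 ± 0.40. In KO liver the same list had 16 higher and 4 lower members with a median of 0.39 and 0 called.

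The other lipid lists also had more higher than lower members with all libraries in the fit, which did not hold for each without KO 2. Of all genes 41.2% were higher with all libraries in the fit. Of 20 fatty acid oxidation genes 15 were higher (median 0.20), with Acadvl and Acaa2 higher and Hadhb lower at an unadjusted p under 0.05, and without KO 2 10 were higher (median -0.040). Of 17 lipid uptake genes 15 were higher (median 0.20), and 10 without KO 3. Lipc, hepatic lipase, had 43.1, 106 and 28.5 in KO and 9.31, 17.7 and 8.69 in WT libraries (2.07 ± 0.66), 1.16 ± 0.36 with the hepatocyte markers as a covariate. Lrp1, a lipoprotein receptor, had 987, 2814 and 2432 in KO and 875, 1078 and 1166 in WT libraries (0.87 ± 0.34), and passed the threshold without KO 1. Of 24 cholesterol synthesis genes 18 were higher (median 0.19) and 0 had an unadjusted p under 0.05. Without KO 2 11 were higher and 13 lower (median -0.016), and with the hepatocyte markers as a covariate 8 were higher and 16 lower (median -0.10). Of 12 acute phase genes 8 were higher with a median of 0.61, and 4 were higher with a median of -0.054 without KO 2.

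Endothelial identity genes differed by small amounts. Of 25 endothelial markers 9 were higher and 16 lower, from -0.37 to 0.54 with a median of -0.050, 0 called, and 1 higher and 6 lower at an unadjusted p under 0.05, where 41.2% of all genes were higher and 9.21% were lower at that p. Without KO 2 15 were higher and 10 lower (median 0.072), and without KO 3 3 were higher and 22 lower (median -0.17). With the GC slope as a covariate 2 were higher and 23 lower (median -0.15). With the trend on GC removed 6 were higher and 19 lower (median -0.083). Eng (endoglin, a co-receptor for BMP and TGF-β ligands) had 3556, 3257 and 7139.7 in KO and 2886, 3182 and 2899 in WT libraries (0.54 ± 0.19, limma adjusted p = 0.277). KO 3 held far more than every other library. With the GC slope as a covariate the Eng difference was 0.23 ± 0.14, and with the trend on GC removed 0.35 ± 0.14. Mrc1, the mannose receptor, had 17292, 14223 and 15489 in KO and 20095, 20095 and 20095 in WT libraries (-0.36 ± 0.096), and Emcn, the sialomucin endomucin, had 592, 511 and 491 in KO and 666, 684 and 709.6 in WT libraries (-0.37 ± 0.10). Both passed without KO 1. The differences of Mrc1 and Emcn were -0.32 ± 0.10 and -0.28 ± 0.097 with the GC slope as a covariate. They were -0.23 ± 0.098 and -0.20 ± 0.093 with the trend on GC removed. Kdr, Tek, F8 and Stab2 differed by -0.30, -0.26, -0.26 and -0.31, and several of these values repeat between libraries because they record a rank. Of 6 genes of central vein endothelium 3 were higher and 3 lower (median 0.033), and of 8 portal side genes 6 were higher (median 0.16), with Ltbp4, a TGF-β binding protein of the matrix, at 1088, 899 and 3134 in KO and 821, 869 and 864 in WT libraries (0.77 ± 0.34), highest in KO 3. Without KO 3 the portal side genes had 4 higher and 4 lower members. Of 23 genes of BMP and TGF-β signalling 9 were higher and 14 lower (median -0.057), with 12 higher and 11 lower with the hepatocyte markers as a covariate, and besides Eng the receptor gene Tgfbr1 had an unadjusted p under 0.05, with a difference of -0.26.

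Angiogenic and vascular genes were divided. Of all genes 41.2% were higher, and 4.43% were higher and 9.21% lower at an unadjusted p under 0.05. Of 21 angiogenic genes 10 were higher and 11 lower (median -0.022), 4 in each direction at an unadjusted p under 0.05. Without KO 2 14 were higher and 7 lower (median 0.19). Plvap, the diaphragm protein of fenestrae, had 577, 526 and 1222 in KO and 427, 429 and 424 in WT libraries (0.75 ± 0.23), highest in KO 3. Vegfa, a growth factor made by many cells including hepatocytes, had 87.4, 263 and 92.2 in KO and 75.96, 54.8 and 79.3 in WT libraries (0.89 ± 0.36), highest in KO 2. Its co-receptor Nrp1 had 9809, 8139 and 7425 in KO and 10869, 10869 and 10869 in WT libraries (-0.37 ± 0.13). The receptors Notch1 and Notch4 differed by 0.33 and 0.45, and the ligand Vegfb by -0.59. Of 20 genes of vascular tone 15 were higher (median 0.13), 11 without KO 3 (median 0.0097) and 10 with the GC slope as a covariate (median -0.0014). With the trend on GC removed 15 were higher (median 0.10). Among the 20 genes Calcrl, the receptor for adrenomedullin and CGRP, had 5500.4, 4539 and 3897 in KO and 5670.4, 6297 and 5899 in WT libraries (-0.37 ± 0.13).

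Matrix genes had more members with higher values in KO. Of all genes 41.2% were higher, and 4.43% were higher and 9.21% lower at an unadjusted p under 0.05. Of 23 extracellular matrix genes 17 were higher and 6 lower (median 0.22), 7 higher and 0 lower at an unadjusted p under 0.05. Without KO 3 the median was 0.13 with 3 higher at that p, and with KO 2 and KO 3 left out 12 were higher and 11 lower (median 0.015). The basement membrane collagens Col4a1 and Col4a2 had 3057, 2147 and 4102 and 1423, 1059 and 2151 in KO libraries, against 1859.6, 1989.9 and 2147 and 813, 829.9 and 1039.8 in WT libraries (0.59 ± 0.19 and 0.74 ± 0.24). Lamc1, a laminin chain, and Hspg2, perlecan, differed by 0.41 and 0.67. Col18a1 had 152, 797 and 133 in KO and 71.4, 71.4 and 103 in WT libraries (1.64 ± 0.69), and Fn1, fibronectin, had 962, 2362 and 1154 in KO and 691, 800.0 and 925 in WT libraries (0.79 ± 0.36), both highest in KO 2. The list's median GC was 54.5%, and with the GC slope as a covariate 1 member was higher and 1 lower at an unadjusted p under 0.05. With the trend on GC removed 4 members were higher and 1 lower at that p. Stellate cell markers were given beside the matrix list. Of these 9 of 14 were higher (median 0.27, and 0.037 without KO 3), with Pdgfrb, Tagln, Col1a1 and Ngfr at an unadjusted p under 0.05. With the GC slope as a covariate 6 stellate markers were higher and 8 lower, and with the trend on GC removed 9 were higher and 5 lower. The stellate marker sums of 11685 to 16177 in KO and 14885 to 16523 in WT libraries overlapped. Their part in the matrix values was not tested.

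Cell division genes were lower in most of their members. Of 19 cell cycle genes 2 were higher and 17 lower (median -0.31), with Ccna2, Ccnb2 and Wee1 lower at an unadjusted p under 0.05. Over all genes 41.2% were higher, and 9.21% were lower at that p. Without KO 1 5 cell cycle genes were higher and 14 lower (median -0.21). Ccna2, cyclin A2, had 35.5, 64.8 and 45.7 in KO and 73.8, 81.4 and 72.6 in WT libraries (-0.67 ± 0.23). Top2a, a topoisomerase of dividing cells, had 8.21, 126 and 105 in KO and 93.3, 102 and 124 in WT libraries, and Mki67, a proliferation marker, had 20.5, 192 and 148 in KO and 128, 177 and 164 in WT libraries. For these 2 genes KO 1 alone was low. With KO 2 and KO 3 left out, 34 genes passed (7 higher, 27 lower), among them Top2a at -3.53 and Mki67 at -2.86, with KO 1 assumed to vary like the other groups. In Kupffer cells 20 of 22 cell cycle genes were lower (median -0.52, 0 called).

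The counts of some immune and stress lists turned when 1 KO library was left out. Of all genes 41.2% were higher with all libraries in the fit. All 7 MHC class II genes were lower (median -0.39), with H2-DMb1 lower at an unadjusted p under 0.05, and without KO 1 3 were higher and 4 lower. In KO 1 alone, with KO 2 and KO 3 left out, their median was -1.23, and in Kupffer cells all 7 were lower (median -0.53, 0 called). Of 22 interferon response genes 13 were higher (median 0.036), and 0 had an unadjusted p under 0.05 here or in the lists of 12 leukocyte adhesion and 15 heat shock genes. Without KO 3 4 interferon genes were higher and 18 lower (median -0.24), 4 of them lower at that p. The GC slope as a covariate gave 4 higher and 18 lower as well, but with the trend on GC removed 15 were higher and 7 lower (median 0.070). Of 18 immediate early genes 14 were higher (median 0.12), but 7 without KO 3 (median -0.089) and 5 with the GC slope as a covariate (median -0.16). With the trend on GC removed 11 were higher and 7 lower (median 0.096). One of the 18, Nr4a2, an orphan nuclear receptor induced by stimuli, had 6.89, 7.95 and 6.50 in KO and 14.4, 21.3 and 28.3 in WT libraries (-1.41 ± 0.37, limma adjusted p = 0.205). Among endoplasmic reticulum stress genes Atf4 differed by 0.29 and its target Ddit3 by -0.75, in opposite directions. Of 21 chemokine and cytokine genes 11 were higher, with the interferon-induced chemokine Cxcl9 at -0.68.

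Ribosomal protein and oxidative phosphorylation genes are read against all genes, of which 41.2% were higher and 9.21% lower at an unadjusted p under 0.05. Of 65 ribosomal protein genes 18 were higher and 47 lower (median -0.15), 2 higher and 10 lower at an unadjusted p under 0.05. Of 72 oxidative phosphorylation genes 26 were higher and 46 lower (median -0.070, against -0.059 over all genes), 5 of them lower at that p, shares near those of all genes. With the hepatocyte markers as a covariate 38 were higher and 34 lower. Many ribosomal protein genes have near-identical pseudogenes, and the sources used here do not give how reads were shared among them. Red cell genes had larger differences: Hba-a2, an α-globin, had 6.17, 15.5 and 9.18 in KO and 1.31, 0 and 0.0380 in WT libraries, and Hbb-b1, a β-globin, had 31.99, 89.4 and 5.06 in KO and 5.36, 9.94 and 2.12 in WT libraries (2.13 ± 0.74). Hba-a1 and Hba-a2 are near-identical copies and their values are not independent. Of 8 erythroid and platelet genes tested 7 were higher (median 0.72, 0.35 without KO 2 and 1.63 without KO 3). The list's sum ranged from 89.4 to 213 signal units in KO and from 58.7 to 72.8 in WT libraries, which did not overlap. In the 18 endothelial libraries of other times it ranged from 65.0 to 179, which overlaps both groups.

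Markers of further cell types summed to far lower levels than the endothelial markers, with wider ranges in KO. Neutrophil and monocyte markers summed to 153 to 1179.9 signal units in KO and 213 to 283 in WT libraries, lymphocyte markers to 40.2 to 157 in KO and 57.0 to 72.2 in WT, and cholangiocyte markers to 81.1 to 432 in KO and 49.4 to 180 in WT. Dendritic cell markers summed to 849 to 1245 in KO and 986 to 1062 in WT libraries. The KO range spanned the WT range for all of these but the cholangiocyte markers, for which the ranges overlapped. KO 2 was highest for the neutrophil and lymphocyte markers, KO 1 for the cholangiocyte and KO 3 for the dendritic cell markers. The part of these cells in the endothelial values was not tested.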

How the data were processed

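RNA of endothelial cells, Kupffer cells and whole liver was analysed from the deposited tables of the series, with 1 column per library. Per the submitters' processing notes, STAR, HOMER and the mm9 build were used, with no versions given. The authors' endothelial and Kupffer values are a signal per transcript. All 24 columns of each of these tables hold 1 set of sorted values, so the authors' values were read as quantile normalised, a step not stated in the labels. Of the endothelial values 71.6% were not whole, and depth cannot be recovered. The deposited liver table holds expected counts in multiples of 0.5, rounded here to whole numbers, with totals of 4.57e6 to 10.4e6 per library. The reverse-phase liver table was not used here. No column was left unmapped to a sample.

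Of 34600 transcript rows 1 was kept per symbol, that of the largest mean, which left 24421 symbols. 413 of these symbols are listed at several genomic copies. Signal was tested with limma 3.58.1 (R 4.3.3; trend, robust) on log2(value + 1) over genes reaching a value of 10 in 3 libraries or more, with 8 groups of genotype and time sharing 1 estimate of the spread. A fold on this scale understates the change of genes of low signal. Liver counts were tested with edgeR 4.0.16 (TMM, filterByExpr, quasi-likelihood), with DESeq2 1.42.0 as an alternative. A Benjamini-Hochberg adjusted p under 0.05 counted as passing. No test ran across tables. The procedures were tested on simulated data. A count test planned for the endothelial and Kupffer tables was replaced by limma because of their unit.

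The rule for named genes took the targeted genes, the clock list, markers by range and the 10 largest called changes in each direction; where fewer were called, genes of smallest p filled the 10 and are given as not called. The comparison, members and lists were chosen with earlier results of these data known. Transcript GC came from GENCODE vM21 transcripts on GRCm38, matched by accession or symbol, and promoter windows from RefSeq on GRCm38.p6 (15 of the 20 genes of smallest p matched, of which Rbm47 holds the core and Inf2, Khk and Otud1 the E-box). Gene coordinates were copied from the tables (mm9). Alternatives were other pseudocounts, filters, scalings, variance models and covariates, the replicate block and leaving out libraries; those on GC were added after the data were seen.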

Additional observations from a re-analysis of the deposited data

Results flagged for a closer look

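For 12 of 122 named genes the 3 KO libraries lay wholly on one side of the 3 WT libraries at ZT22 and wholly on the other side at another time. Over all genes the ZT22 groups did not overlap for 4.42%, with KO higher, and for 10.5%, with KO lower. The share of all genes that also lay on the other side at another time was not counted, so the 12 cannot be set against it. The differences below are KO minus WT on the log2 scale in endothelial cells. The difference between the 2 times was not tested for any of them, and the adjusted p is that of limma for the ZT22 effect against the mean effect at ZT4, ZT10 and ZT16, which none passed.

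Among genes higher in KO, Khk was 1.08 at ZT22 and -0.56 at ZT10, and Por was 0.86 at ZT22 and -0.82 at ZT10. Inf2 was 0.98 at ZT22 and -0.46 at ZT10, and the RNA-binding protein gene Rbm47 was 1.58 at ZT22 and -0.67 at ZT16. Each had a limma adjusted p of 0.234. Of the genes lower in KO, Vstm4 was -0.65 at ZT22 and 0.41 at ZT10, Gabra3 was -0.88 at ZT22 and 0.82 at ZT10, and the mitotic kinase gene Pbk was -1.84 at ZT22 and 0.85 at ZT10. Kdelc2 was -0.49 at ZT22 and 0.24 at ZT4, and the kinetochore gene Nsl1 was -1.05 at ZT22 and 0.49 at ZT16. These 5 also had an adjusted p of 0.234. The cryptochrome gene Cry2 was -0.31 at ZT22 and 0.45 at ZT16 (adjusted p 0.635), the endothelial marker Eng 0.54 at ZT22 and -0.43 at ZT10 (adjusted p 0.286), and the stellate marker Pdgfrb 0.74 at ZT22 and -0.35 at ZT4 (adjusted p 0.282). The first 9 were chosen for their small p at ZT22.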

How the results depend on the processing

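No gene passed at ZT22 in endothelial cells under the other pseudocounts, filters, size factors, variance models, covariates (transcript length, hepatocyte markers, GC), the longest transcript per gene or a fit of the 6 libraries alone. With KO 2 and KO 3 left out, 34 genes passed for the ZT22 effect and 15 for its difference from the other times; leaving out single libraries gave 0 to 242 and 0 to 399 genes, the highest without KO 1. Genes at an unadjusted p under 0.05 numbered 1708, but 868 with array weights and 787 in the 6 libraries alone. They numbered 2850 without KO 1 and 1116 without WT 2. With the GC slope as a covariate they numbered 1052, and with the trend on GC removed 1327. In Kupffer cells 2 genes passed without the filter on low values, against 0 with it, and 0 to 1 when single libraries were left out. In liver 251 genes passed with edgeR, 326 with DESeq2, and 146 to 217 when single libraries were left out. The hepatocyte ratio was 3.31, or 1.15 to 4.66 when single libraries were left out. Of 2543 values of 122 named genes under the alternatives, 26 passed the threshold and 0 passed it in the opposite direction. The 20 genes of smallest p are among the 122, and their choice favours an unchanged direction.

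Replicate numbers did not pair the samples: same-numbered KO and WT libraries correlated in their deviations by -0.26 to 0.19 over the 4 times (0.084, 0.087 and -0.0089 at ZT22). With the replicate number as a block 0 endothelial genes passed, for either endothelial test, 0 in Kupffer cells and 227 in liver.

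The depth of the endothelial libraries is unknown. With 3 libraries a group the median 95% half-width was 0.41 on the log2 scale, before adjustment for the number of genes. The adjusted threshold asks for larger differences than that, and even Thrsp at 1.38 ± 0.26 (log2 ± SE) did not pass it. Differences above 0.41 can therefore go undetected as well. The delivered vector goes along with genotype and cannot be told apart from it. Hepatocyte RNA was above WT in KO 1 and KO 2 and below it in KO 3, and the GC gradient was steepest in KO 3. With the hepatocyte level or the GC slope as a covariate 0 genes passed.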
